A study of Ailuropoda melanoleuca with 25 samples.

Results

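The spleen and lung of the giant panda (Ailuropoda melanoleuca) were compared together with the heart, liver, and kidney, and the genes that both organs held above, or both held below, each of the other 3 tissues were described. A shared gene had a log2 difference beyond 1 in the same direction, at a Benjamini-Hochberg adjusted p below 0.05 from limma, in all 6 pairs of spleen or lung with heart, liver, or kidney. Of 18701 genes tested, 559 were shared higher genes (2.99%) and 355 were shared lower genes (1.90%). A name could be given to 32 of the shared higher genes and 29 of the shared lower genes, and the shared genes described here come from these 61. Names came from the study's supplementary list of tissue-specific genes, which pairs 1778 identifiers with a name, so 527 shared higher genes and 326 shared lower genes were counted without one. The study chose that list on these same samples by setting each tissue against the other 4. The named genes are therefore not a random part of the shared genes, and their directions are not independent evidence.

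One library was made from each tissue of each of 5 pandas, which gave 10 libraries of spleen and lung and 15 libraries of heart, liver, and kidney, 25 in all. Panda 1 was a female with a labelled age of 27 that died of ovarian cancer, and panda 2 was a female with a labelled age of 9 that died of a cause given as ileac pssion. Pandas 3 and 4 (females) and panda 5 (a male) had a labelled age of 0.5 and died of coronavirus infection, and the age label carries no unit. No treatment is labelled, all tissues were put into liquid nitrogen directly after collection, and age, year, and cause of death cannot be told apart in these animals.

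The spleen filters blood and houses dense follicles of B cells, sheaths of T cells, and macrophages that clear aged red cells. The lung is an exchange surface of thin alveolar epithelium over a rich capillary bed, patrolled by macrophages, dendritic cells, and circulating lymphocytes. Heart, liver, and kidney are dominated by cell types with large metabolic loads, namely cardiomyocytes, hepatocytes, and tubule cells. In whole tissue, more cells of a type and more RNA in each cell of that type cannot be told apart, and this holds for every level given here.

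Levels are given as deposited FPKM, the reads on a gene divided by its length and by the total of its library. Differences are given on the log2(FPKM + 1) scale after quantile scaling between libraries, which understates the change of genes with low levels. Reads on genes ranged from 13149541 to 21382959 per library. The median over genes of the mean FPKM in spleen and lung was 10.3 and in the other tissues 5.64, and without scaling the median log2 difference of spleen and lung from the others over all genes was 0.8138, against 0.0353 after quantile scaling. All 32 named higher genes were also shared without scaling, but of the 29 named lower genes only 7 were. Kidney tubule markers (8 genes, summed FPKM) stood at 364 in the kidney of panda 4, against 1729 to 4337 in the other kidneys, and hepatocyte markers (8 genes) stood at 6424 in the liver of panda 3, against 17882 to 61303 in the other livers. Without these 2 libraries 578 shared higher and 330 shared lower genes were found, and of the named genes only CD7 and STYXL1 were lost.

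Each organ also carried its own defining markers. Alveolar epithelium markers (7 genes) summed to between 14631 and 48940.1 FPKM in the lung and between 18.8 and 153 in the spleen, against 2.61 to 29.0 in the 15 other libraries. Spleen stroma markers (5 genes, TLX1 and CXCL13 among them) summed to 389 to 841 in the spleens and 0.532 to 1.01 in the lungs, with 2 of the 5 at 0 in all 5 lungs. B cell markers (6 genes) summed to between 387 and 793 in the spleen, 22.4 and 93.7 in the lung, and 1.45 and 13.9 elsewhere. T cell markers (6 genes) summed to between 197 and 1630.2 in the spleen, 49.8 and 94.3 in the lung, and 0.88 and 8.84 elsewhere. All 12 lymphocyte markers were higher in spleen and lung together, and their part in the other shared genes was not tested.

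**Figure D1:**
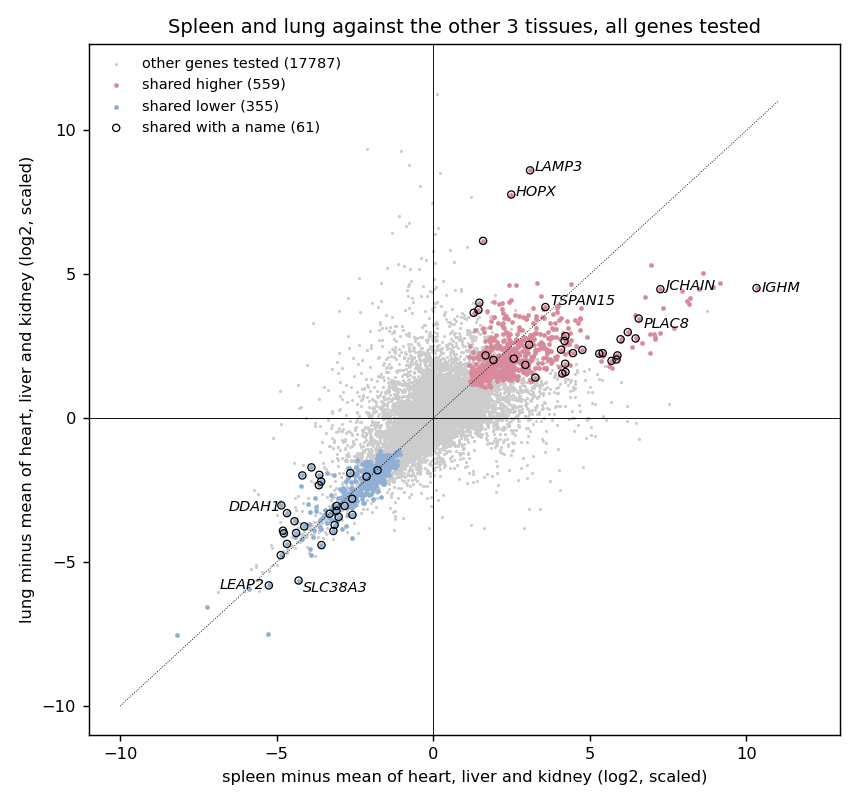
Each point is a gene, placed by its scaled log2 difference of the spleen (horizontal) and of the lung (vertical) from the mean of heart, liver, and kidney, with shared higher genes in red, shared lower genes in blue, and named shared genes ringed. IGHM and JCHAIN lie to the right of the dotted line of equal difference, LAMP3 and HOPX lie far above it, and the shared lower genes stay close to it.

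By the smallest of the 6 pairwise differences, genes of antibody production led the named higher genes. JCHAIN, the joining chain that links IgM and IgA into polymers, stood at 2568, 714, 2750.1, 1066 and 4457 FPKM in the spleens of pandas 1 to 5 and at 203, 180.0, 846, 249.5 and 469.6 in their lungs. It ranged from 2.46 to 43.5 (median 8.82) in the 15 other libraries, so every spleen and lung lay above every heart, liver, and kidney. Its log2 difference between the 2 groups of tissues was 5.87 (SE 0.28), and the smallest of its 6 pairwise differences, lung against kidney, was 3.75 (adjusted p = 4.85e-07, limma). Non-overlap of this kind after scaling occurred in 400 of all genes tested in the higher direction (2.14%), and in 20 of the 32 named higher genes.

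IGHM, the constant region of the IgM heavy chain, reached 9547, 8176, 3989, 6568 and 6831 FPKM in the spleens and 158, 173, 479.5, 252 and 183 in the lungs. The other 15 libraries ranged from 0.967 to 15.7 (median 6.05), below every spleen and lung. Its log2 difference of 7.42 (SE 0.30) was the largest of the named shared genes, and the smallest pairwise difference was 3.55 (lung against liver, adjusted p = 2.11e-06, limma). The spleen exceeded the lung by 5.79 (SE 0.47), the widest gap between both organs among the named shared genes. In the lung, panda 3 had the highest level of both IGHM and JCHAIN. CD79A, the signalling chain of the B cell receptor, and POU2AF1, a coactivator of octamer factors in B cells, followed at lower levels. CD79A stood at 135 ± 53.7 FPKM in the spleen (SD, n = 5) and 13.3 ± 10.8 in the lung, and POU2AF1 at 37.8 ± 15 and 6.56 ± 4.59. In the 15 other libraries CD79A did not exceed 1.31 FPKM and POU2AF1 did not exceed 0.731.

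CD3D, CD3E, and CD3G, the CD3 chains that carry the signal of the T cell receptor, moved together. CD3E stood at 513, 71.2, 128, 93.4 and 439 FPKM in the spleens and 13.1, 27.5, 21.2, 25.3 and 11.5 in the lungs, and from 0.215 to 2.54 (median 1.06) in the other libraries. The spleens of pandas 1 and 5 were the highest and that of panda 2 the lowest, and the same held for CD3D and CD3G. The smallest pairwise log2 differences were 1.64 for CD3E, 1.63 for CD3D, and 1.44 for CD3G, in each case lung against liver, with adjusted p of 0.0200, 0.0144, and 0.0278 from limma. In the RefSeq annotation (ASM200744v3) the genes are direct neighbours, and the library kit does not mark strand, so reads that overlap the neighbour cannot be told apart. CD3E and CD3G were not shared with limma-voom on recovered reads, and both were lost when the liver of panda 1 or 4 or the lung of panda 2 was left out, CD3G also without the lung of panda 3 or 4. CD7, a surface protein of T and NK cells, was the shared gene of the T cell list with more in the lung (109 ± 58.9 FPKM) than in the spleen (25.1 ± 9.90), and its call was lost in 8 of the 25 fits that left out 1 library.

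KLRD1 (CD94), the partner chain of the NKG2 receptors of natural killer cells, stood at 763, 90.9, 345, 188 and 1169.6 FPKM in the spleens and 26.4, 37.0, 113, 46.9 and 51.5 in the lungs. The 15 other libraries ranged from 0.490 to 6.84 (median 2.71), so the groups did not overlap. Its log2 difference was 4.60 (SE 0.40), with a smallest pairwise difference of 2.01 (adjusted p = 0.00896, limma), and KLRD1 belongs to a gene family whose reads could be split between copies. LY9, a SLAM family receptor of lymphocytes, stood at 67.0 ± 21.4 FPKM in the spleen and 15 ± 3.76 in the lung and did not exceed 1.83 elsewhere. PTPRCAP, which binds the phosphatase CD45 in lymphocytes, stood at 601 ± 273 and 62.5 ± 34.7, with a smallest pairwise difference of 2.21 (adjusted p = 0.000118, limma).

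Genes of myeloid cells and of leukocytes in general made up the next group. PLAC8, a cysteine-rich protein abundant in leukocytes, stood at 618, 300.3, 1029, 718 and 1238 FPKM in the spleens and 67.7, 60.6, 199.9, 95.8 and 123 in the lungs. It did not exceed 9.79 in the 15 other libraries, below every spleen and lung, and its log2 difference was 5.01 (SE 0.23) with a smallest pairwise difference of 2.67 (adjusted p = 1.78e-06, limma). Panda 2 had the lowest level in each organ.

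ADAMDEC1, a secreted metalloprotease-like protein of macrophages and dendritic cells, stood at 65.0, 35.7, 67.9, 57.9 and 98.2 FPKM in the spleens and 24.0, 11.6, 71.0, 11.7 and 37.7 in the lungs, and from 0 to 9.06 (median 0.702) elsewhere. No spleen or lung fell below the highest kidney, and the smallest pairwise log2 difference was 2.38 (adjusted p = 2.83e-07, limma). MILR1, an inhibitory receptor of mast cells, stood at 77.8 ± 17.6 FPKM in the spleen and 19.7 ± 8.22 in the lung, with a log2 difference of 3.36 (SE 0.23). LIMD2, a small LIM-domain protein, stood at 210.3 ± 84.3 and 48.4 ± 23.0, with a log2 difference of 3.57 (SE 0.20). ITGA4, the integrin alpha 4 chain that lymphocytes use to leave the blood, stood at 31.5 ± 14.2 and 14.4 ± 4.06. MMP25, a membrane-anchored metalloprotease of neutrophils, stood at 31.8 ± 24.9 and 27.9 ± 12.9, and its spleen values were higher in pandas 2 and 4 (15.9, 61.1, 16.3, 56.6 and 9.21 in pandas 1 to 5). MMP25 was lost when the spleen of panda 2 or 4 or the lung of panda 3 was left out.

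**Figure D2:**
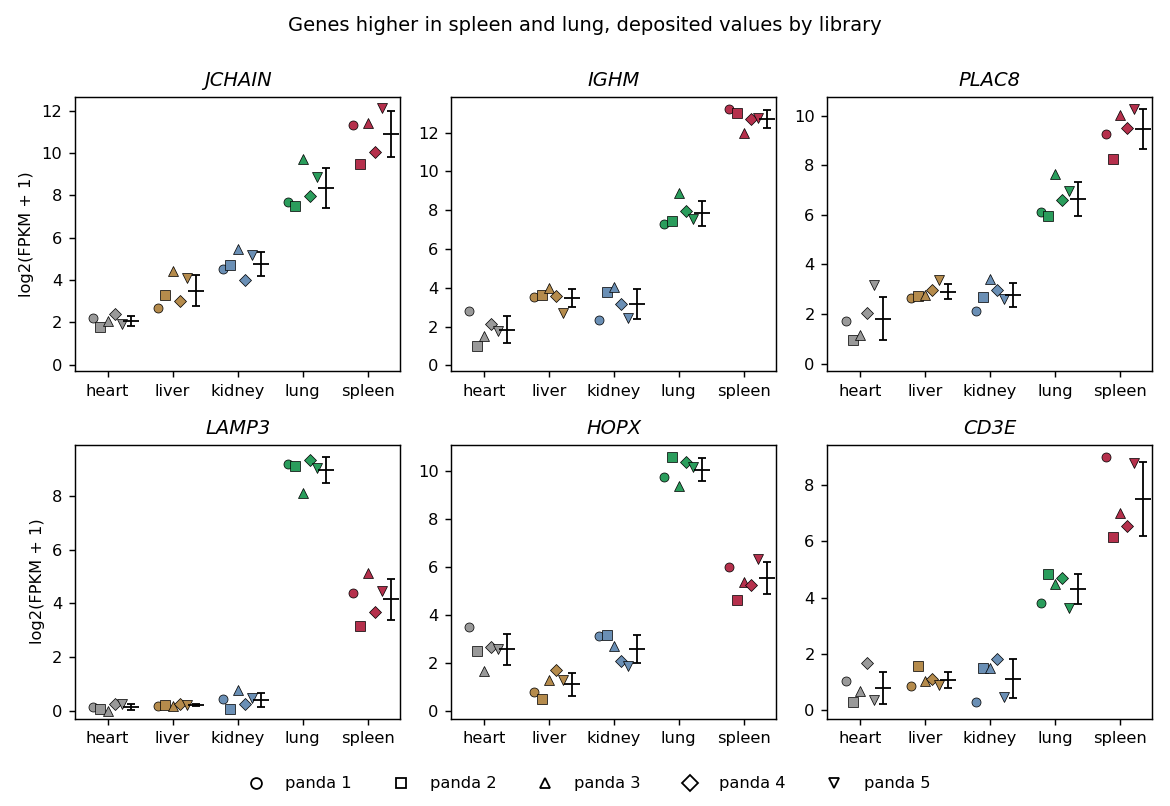
Deposited level, as log2(FPKM + 1), of 6 named shared higher genes in each library (5 pandas, marker shape; 5 tissues, colour), with the mean and SD of each tissue beside the points. JCHAIN, IGHM, PLAC8, and CD3E were highest in the spleen and LAMP3 and HOPX in the lung, and in each panel the lower of both organs still lay above heart, liver, and kidney.

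A smaller group was led by the lung. LAMP3, a lysosomal membrane protein of mature dendritic cells and of type 2 alveolar cells, stood at 591, 555, 279.9, 645 and 530.2 FPKM in the lungs and 19.8, 7.80, 33.9, 11.8 and 21.2 in the spleens. It did not exceed 0.681 in the 15 other libraries, 6 of which held 3 reads or fewer. Its smallest pairwise log2 difference was 2.84 (spleen against liver, adjusted p = 6.42e-08, limma), and the lung exceeded the spleen by 5.52 (SE 0.29) on the log2 scale. The lung of panda 3 was the lowest lung and the spleen of panda 3 the highest spleen.

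HOPX, a homeodomain protein that marks type 1 alveolar cells and is also made by some T cells, stood at 872, 1548, 672, 1342 and 1146 FPKM in the lungs and 64.1, 24.1, 41.1, 37.6 and 80.8 in the spleens. The highest of the 15 other libraries reached 10.3, below every spleen, and the smallest pairwise difference was 1.78 (spleen against heart, adjusted p = 0.00160, limma). VWA5A, a von Willebrand factor A domain protein, stood at 259 ± 93.1 in the lung and 16.7 ± 9.94 in the spleen, and LRRK2, a kinase with a GTPase domain, at 96.3 ± 71.3 and 16.4 ± 5.98. ROS1, a receptor tyrosine kinase, stood at 20.2 ± 6.43 and 2.53 ± 0.736 and was listed at 0 in 8 of the 15 other libraries. The summed alveolar epithelium markers of the spleen were highest in panda 4 (153) and lay between 18.8 and 41.0 in the other 4 spleens, whereas spleen LAMP3 and HOPX were not highest in panda 4. Whether alveolar RNA had a part in the spleen levels was not tested.

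The remaining named higher genes have varied roles and do not form a single group. TSPAN15, a tetraspanin that escorts the sheddase ADAM10, stood at 184, 186, 101, 129 and 148 FPKM in the spleens and 187, 227, 83.8, 270.1 and 135 in the lungs, and from 0.403 to 35.2 (median 11.8) elsewhere. Its groups did not overlap, its smallest pairwise difference was 2.51 (adjusted p = 1.25e-08, limma), and the difference of spleen from lung of -0.28 (SE 0.23) did not pass the test (adjusted p = 0.406, limma). NPY1R, a receptor of neuropeptide Y, stood at 158 ± 65.9 in the spleen and 25.3 ± 22.8 in the lung, with a smallest pairwise difference of 2.23 (adjusted p = 4.39e-05, limma).

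CLDN11, a tight junction claudin, stood at 115 ± 52.8 FPKM in the spleen and 16.8 ± 8.09 in the lung. SVEP1 and LTBP2 are large proteins of the extracellular matrix. SVEP1 stood at 89.5 ± 33.5 and 30.0 ± 8.45, and LTBP2 at 47.8 ± 27.9 and 32.4 ± 11.2. NDNF, a secreted factor of neurons and vessels, stood at 45.0 ± 22.4 and 16.6 ± 8.90, and STEAP4, a metalloreductase, at 23.8 ± 19.8 and 15.6 ± 10.6. In both organs STEAP4 was highest in pandas 1 and 5. DLL1, a ligand of Notch receptors, stood at 116 ± 22.4 and 24.7 ± 11, TP73, a relative of p53, at 30.5 ± 18.4 and 7.27 ± 2.97, and WIPF3, a regulator of actin assembly, at 9.98 ± 3.92 and 15.1 ± 5.64. The smallest pairwise differences of these 8 genes ranged from 1.02 (TP73) to 2.07 (CLDN11).

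For 16 of the 32 named higher genes the narrowest pair was the lung against the liver. The lung took part in the narrowest pair of 23 genes, and the spleen of 9. By deposited FPKM, without scaling, the 10 libraries of spleen and lung lay above all 15 others for 30 of the 32. The share over all genes was not counted on these unscaled values. Without scaling, spleen and lung ran higher over all genes (median log2 difference 0.8138), and these genes were chosen for being higher.

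The shared lower genes were led by LEAP2, a liver-expressed peptide that antagonizes the ghrelin receptor. It stood at 8.21, 3.41, 9.81, 2.21 and 4.07 FPKM in the spleens and 2.06, 2.53, 5.45, 2.57 and 3.43 in the lungs. The 5 hearts held 195, 38.0, 97.8, 38.5 and 154, the 5 livers 681, 434, 129.5, 364 and 1553, and the 5 kidneys 103, 62.0, 99.7, 14.9 and 214. Every spleen and lung lay below every other library, with a log2 difference of -5.53 (SE 0.29) and a smallest pairwise difference of -4.04 (spleen against kidney, adjusted p = 1.80e-07, limma) that was -3.65 without scaling. Non-overlap in the lower direction after scaling occurred in 429 of all genes tested (2.29%) and in 17 of the 29 named lower genes. The spleen and lung levels of LEAP2 rested on 8 to 32 reads per library.

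DDAH1, which degrades the nitric oxide synthase inhibitor asymmetric dimethylarginine, stood at 1.20, 2.36, 1.99, 3.28 and 0.542 FPKM in the spleens and 8.14, 9.76, 4.97, 13 and 5.96 in the lungs. It ranged from 10.2 to 87.7 (median 48.9) elsewhere, so that only the lung of panda 4 reached into the range of the others by deposited FPKM. Its smallest pairwise difference was -2.90 (adjusted p = 5.61e-06, limma), and it was also shared without scaling (smallest difference -2.35). PPP1R3C, which targets protein phosphatase 1 to glycogen, stood at 0.278 ± 0.288 in spleen, 1.05 ± 0.570 in lung, 24.0 ± 8.62 in heart, 28.7 ± 17.9 in liver, and 8.22 ± 5.11 in kidney. ADSSL1, the muscle form of adenylosuccinate synthase, stood at 1.42 ± 0.967 in spleen and 3.83 ± 1.20 in lung against 162 ± 51.9 in heart. Both were also shared without scaling, with smallest differences of -2.03 and -1.88.

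Mitochondrial and glycolytic genes of muscle were among them. COX7A1, a heart and muscle form of a cytochrome c oxidase subunit, stood at 114, 135, 195, 152 and 244 FPKM in the spleens, 102, 133, 163, 186 and 146 in the lungs, 3699, 3303, 4814, 3359 and 4143 in the hearts, 201, 305, 872, 259.9 and 406 in the livers, and 1200.5, 1976, 1381, 1075 and 1878 in the kidneys. The heart was far above all, yet by deposited FPKM the spleen of panda 5 exceeded the liver of panda 1. Its smallest pairwise difference was -1.40 (spleen against liver, adjusted p = 2.85e-05, limma) and -1.13 without scaling. SLC25A4, the ADP/ATP carrier of heart and muscle mitochondria, stood at 73.6 ± 7.85 in spleen, 51.8 ± 8.71 in lung, 153 ± 46.8 in liver, 304 ± 77.0 in kidney, and 2981 ± 417 in heart. PFKM, muscle phosphofructokinase, stood at 9.51 ± 3.31 and 6.99 ± 2.33 against 10.4 ± 4.88 in the liver, a pair that differed only after scaling (smallest difference -1.48 with and -0.03 without). ECHDC2, an enoyl-CoA hydratase-like mitochondrial protein, stood at 2.87 ± 0.964 in the spleen and 19.3 ± 6.94 in the lung. Heart held 22.8 ± 2.07, liver 46.1 ± 22.3, and kidney 74.9 ± 33.7. The lung was thus close to the heart, and without scaling ECHDC2 was not shared (smallest difference -0.3).

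**Figure D3:**
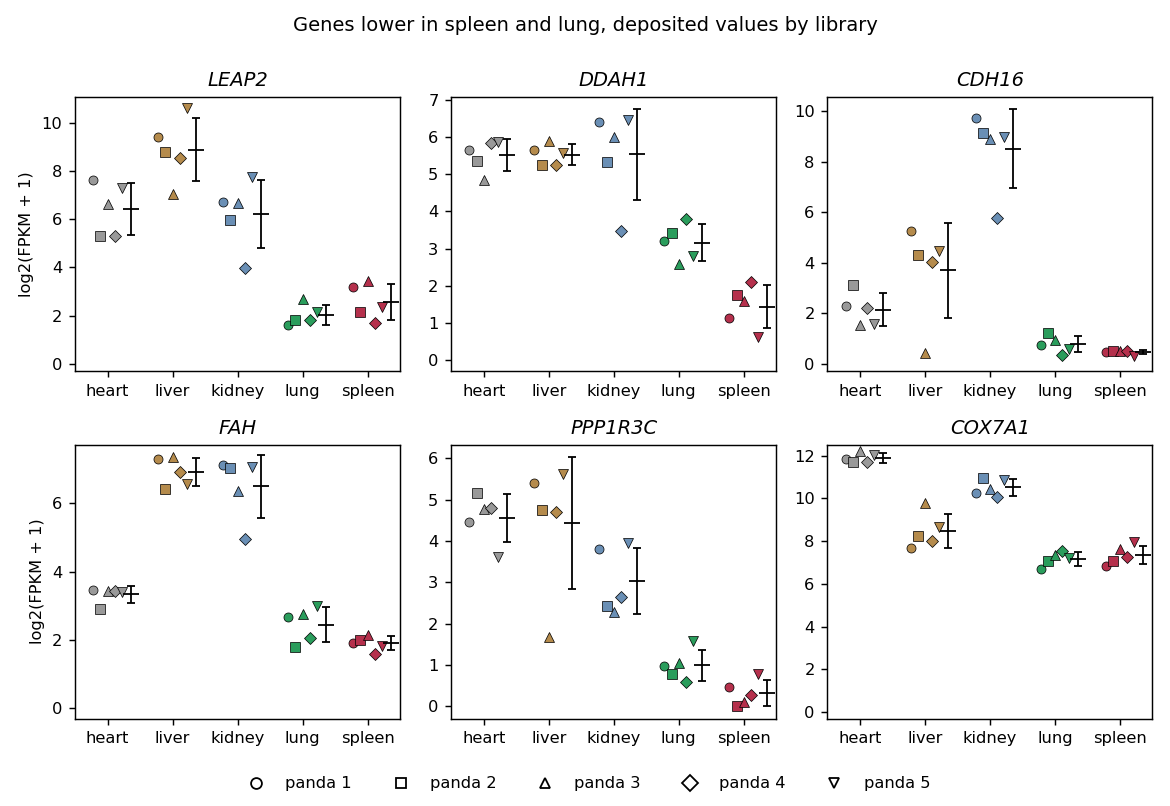
Deposited level, as log2(FPKM + 1), of 6 named shared lower genes in each library (5 pandas, marker shape; 5 tissues, colour), with the mean and SD of each tissue. LEAP2 and PPP1R3C in spleen and lung lay below every other library, while the ranges met at their ends for DDAH1 (lung of panda 4), FAH (lung and heart), COX7A1 (spleen and liver), and CDH16 (liver of panda 3).

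Genes of amino acid breakdown formed the next group. FAH, the last enzyme of tyrosine breakdown, stood at 2.80, 3.02, 3.43, 2.04 and 2.55 FPKM in the spleens and 5.33, 2.46, 5.85, 3.14 and 6.90 in the lungs, against 10.1, 6.47, 9.76, 9.92 and 9.68 in the hearts. Livers and kidneys stood at 123 ± 34.9 and 102 ± 46.3. The narrowest pair was thus the lung against the heart, with a log2 difference of -2.19 (adjusted p = 3.88e-07, limma) that was -0.88 without scaling. CTH, which makes cysteine from cystathionine, stood at 1.23 ± 0.752 in spleen, 4.66 ± 3.38 in lung, 8.51 ± 3.72 in heart, 111 ± 71.6 in liver, and 91.6 ± 40.8 in kidney. UROC1, an enzyme of histidine breakdown, stood at 0.220 ± 0.107 in spleen and 0.322 ± 0.210 in lung, against 53.3 ± 36.8 in liver, 5.13 ± 1.60 in heart, and 2.88 ± 2.41 in kidney. It was also shared without scaling (largest adjusted p of its pairs 0.0491, limma).

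Transporters and surface proteins followed. SLC38A3, a glutamine transporter of liver and kidney, stood at 4.62, 1.91, 5.00, 0.962 and 3.30 FPKM in the spleens and 0.122, 0.10, 0.240, 0.226 and 0.251 in the lungs, and from 3.65 to 328 (median 69.8) elsewhere. Its smallest pairwise difference was -2.25 (spleen against heart, adjusted p = 0.000151, limma), and without scaling the largest adjusted p of its pairs was 0.0523. SLC25A34, a mitochondrial carrier, stood at 1.70 ± 1.40 and 0.220 ± 0.0901, and SLC29A2, a nucleoside transporter, at 0.0522 ± 0.0906 and 0.0517 ± 0.116. SLC29A2 held 3 reads or fewer in 8 of the 10 spleens and lungs and was not shared with median-of-ratios scaling. FOLH1, a carboxypeptidase that releases glutamate from folates and peptides, stood at 0.143 ± 0.0794 in spleen, 1.88 ± 0.468 in lung, and 125 ± 73.3 in kidney. Heart held 13.6 ± 2.78 and liver 2.74 ± 0.822, and without scaling FOLH1 was not shared (smallest difference -0.36).

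CDH16, the kidney-specific cadherin, stood at 0.381, 0.418, 0.414, 0.399 and 0.231 FPKM in the spleens and 0.669, 1.31, 0.905, 0.275 and 0.508 in the lungs. Kidneys held 842, 559, 480.2, 53.3 and 507, livers 36.7, 18.7, 0.346, 15.4 and 21, and hearts 3.82, 7.64, 1.88, 3.60 and 1.93. The kidney of panda 4 and the liver of panda 3, the libraries low in tubule and hepatocyte markers, were the lowest of their tissues, and the smallest pairwise difference was -2.34 (lung against heart, adjusted p = 0.00110, limma). CDH2, the N-cadherin of heart muscle and neurons, stood at 57.6 ± 18.6 in heart, 1.24 ± 0.644 in spleen, and 0.151 ± 0.0895 in lung. Kidney held 10.9 ± 4.79 and liver 2.53 ± 1.57, and without scaling CDH2 was not shared (smallest difference -0.54). NCAM1, a neural cell adhesion molecule, stood at 0.140 ± 0.0683 in spleen and 0.281 ± 0.0936 in lung against 15.1 ± 6.41 in heart, and was also shared without scaling. PTH1R, the receptor of parathyroid hormone, stood at 115 ± 75.7 in kidney, 2.84 ± 1.34 in spleen, and 2.44 ± 1.01 in lung. Heart and liver were much closer, at 4.33 ± 1.94 and 9.55 ± 8.21, with the liver of panda 3 at 0.183. PTH1R was not shared without scaling.

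Further named lower genes were EGLN3, a prolyl hydroxylase of the hypoxia response, FGGY, a carbohydrate kinase, LGALS4, a galectin of epithelia, GRTP1, SBK2, PCP4L1, NCMAP, STYXL1, and a gene listed by a locus number alone. Their smallest pairwise differences ranged from -1.01 (STYXL1) to -1.34, and none of the 9 was shared without scaling. By deposited FPKM the mean of spleen and lung lay below each other tissue for 26 of the 29 named lower genes, and not for EGLN3, FGGY, and NCMAP. All 10 libraries of spleen and lung lay below all 15 others by deposited FPKM for only 4 of the 29. That share was not counted over all genes either. In 13 of the 29 at least one spleen or lung held 3 reads or fewer, whereas no named higher gene did, with 29 reads as their lowest number in a spleen or lung.

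Near the size limit, MMP25 (1.11), VWA5A (1.11), and TP73 (1.02) were the named higher genes just inside. ARHGAP4 (0.90), GFRA3 (0.89), and CHST1 (0.88) passed all 6 tests and lay just outside. On the lower side STYXL1 (-1.01), NCAM1 (-1.07), and LGALS4 (-1.11) were just inside, and NDUFA11 (-0.99), ENO3 (-0.98), and RAPGEF4 (-0.97) just outside.

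Spleen and lung did not hold most of the named higher genes at equal levels. By the same limits of p and size, 3088 of all genes tested differed between spleen and lung (16.5%). Among the shared higher genes 152 of 559 did (27.2%), 124 with more in the spleen and 28 with more in the lung. Among the 32 named higher genes the number was 27, of which 21 were higher in the spleen and 6 (LAMP3, HOPX, VWA5A, LRRK2, ROS1, and CD7) in the lung. Since names exist for genes that set 1 tissue apart, this share over the named genes is not that of all shared genes. The largest gaps toward the spleen were those of IGHM, CD79A (3.81 (SE 0.36)), CD3E (3.70 (SE 0.58)), CD3G (3.70 (SE 0.54)), and PTPRCAP (3.68 (SE 0.41)). Toward the lung they were those of LAMP3, HOPX (-5.28 (SE 0.43)), VWA5A (-4.56 (SE 0.38)), LRRK2 (-2.54 (SE 0.36)), and ROS1 (-2.37 (SE 0.17)).

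TSPAN15, LTBP2, STEAP4, MMP25, and WIPF3 were the 5 named higher genes with no call between spleen and lung, which does not show that their levels were equal. For MMP25 the difference was -0.09 (SE 0.38), and for LTBP2 0.51 (SE 0.35). Among the shared lower genes 16 of 355 differed between spleen and lung (4.51%), 4 with more in the spleen and 12 with more in the lung. Of the 29 named ones, 8 differed, with SLC38A3 higher in the spleen (1.34 (SE 0.43)) and 7 higher in the lung, ECHDC2, LGALS4, NCMAP, SBK2, DDAH1, and GRTP1 among them. The closest were UROC1 (0.01 (SE 0.37)), SLC29A2 (0.03 (SE 0.31)), NCAM1 (-0.04 (SE 0.28)), and FGGY (-0.10 (SE 0.34)), although low levels leave little room for a difference on this scale.

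**Figure D4:**
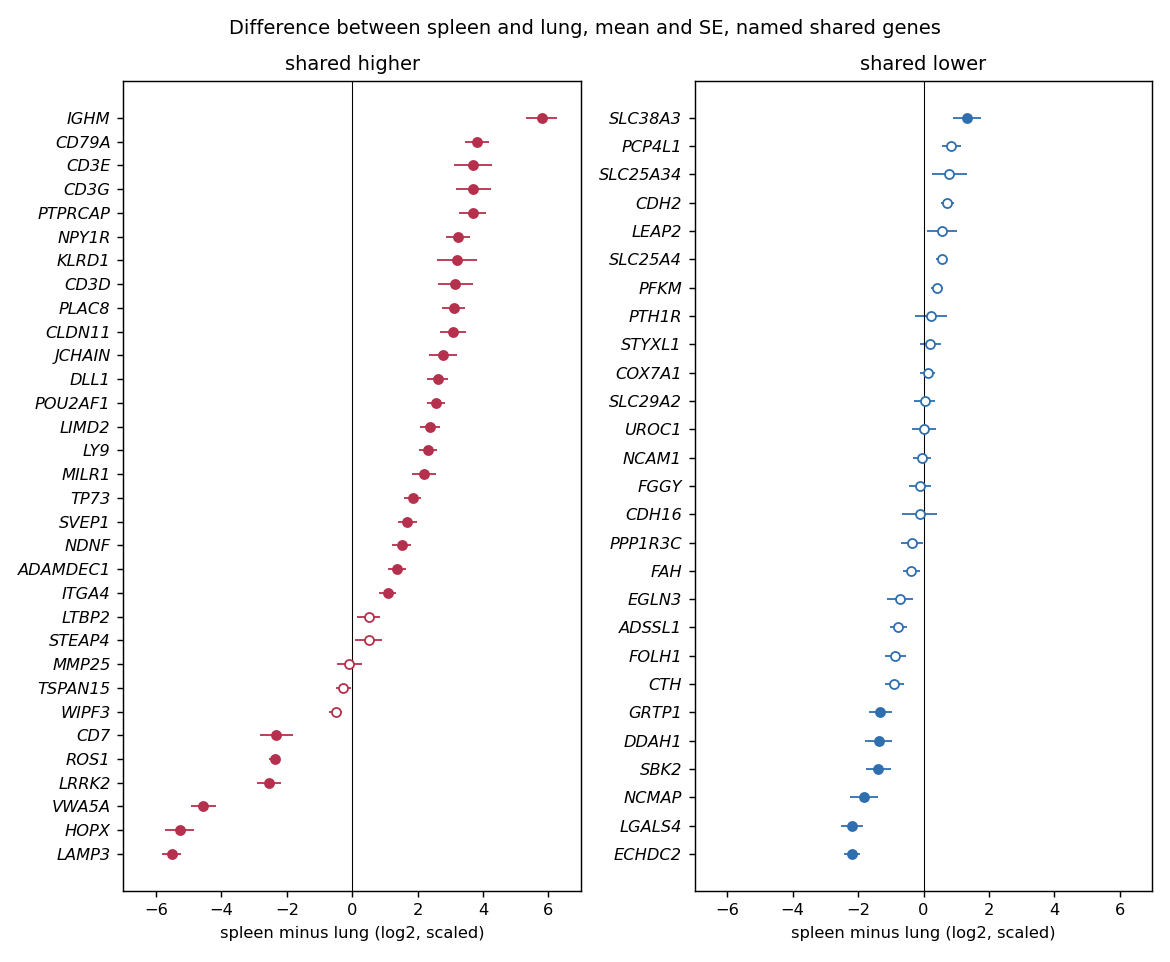
Scaled log2 difference of spleen minus lung for the named shared genes (without 2 of the 61, the gene listed by a locus number among them), with the SE as bars, filled where it was called. Of the higher genes 21 lie filled to the right (spleen) and 6 to the left (lung), whereas most lower genes are unfilled, which does not show equal levels.

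With spleen and lung averaged and set against the average of the other 3 tissues, 2245 genes were higher (12%) and 2353 were lower (12.6%). Taken by itself, the spleen lay above all 3 other tissues for 1501 genes (8.03%) and below them for 578 (3.09%), and the lung above for 1275 (6.82%) and below for 550 (2.94%). By the order of tissue means alone, with no test, spleen and lung were both highest for 3836 genes (20.5%) and both lowest for 3017 (16.1%). For the 1778 named genes these orders held for 215 (12.1%) and 292 (16.4%). The lists that follow are drawn from the named genes, of which 19.5% were higher and 38.8% lower for the average, 1.8% were shared higher, and 1.63% were shared lower. List counts are read against these shares.

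Most immune genes with a name were higher in the average of spleen and lung without being shared, and more of them passed all 3 tests in the spleen than in the lung. Of the T cell list (30 of 41 genes with an identifier) 26 were higher. In the spleen 27 lay above each of heart, liver, and kidney, and in the lung 7 did. The list held 6 shared genes (PTPRCAP, CD3E, CD3D, CD3G, CD7, and LY9). Its median log2 difference was 2.12, against 0.04 over all genes tested. TESPA1, an adaptor of T cell development, stood at 143 ± 64.9 FPKM in the lung, 12.6 ± 2.31 in spleen, and 11.7 ± 3.97 in heart, and after scaling it was lower in the spleen than in the heart (-1.17, adjusted p = 0.00728, limma). TRDC, the constant region of the delta chain of the T cell receptor, stood at 204 ± 209.9 in the spleen and 11.3 ± 3.45 in the lung (lung against liver adjusted p = 0.313, limma).

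In the B cell list (28 of 32) 22 were higher, and in the spleen 28 lay above each of heart, liver, and kidney. In the lung only the 4 shared genes JCHAIN, IGHM, CD79A, and POU2AF1 did so. Every gene of this list was higher in the spleen than in the lung. CD79B, the other signalling chain of the B cell receptor, stood at 3.65, 3.49, 23.4, 4.57 and 3.66 in the lungs, where panda 3 stood above the other 4, and it missed the test of lung against liver (adjusted p = 0.0818, limma). The median log2 difference was 1.89.

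Of the natural killer list (9 of 20) 7 were higher, 9 in the spleen over each of heart, liver, and kidney, and KLRD1 was shared. KLRK1, an activating receptor of natural killer cells, stood at 72.9 ± 43.9 and 9.05 ± 5.85, and CRTAM, an adhesion molecule of cytotoxic cells, at 34.8 ± 23.3 and 1.56 ± 0.960. The list of macrophages, dendritic cells, and granulocytes (23 of 40) had 16 higher and 2 lower genes (IL5RA and MS4A4A). It held 5 shared ones (LAMP3, PLAC8, ADAMDEC1, MILR1, and MMP25), with 8 in the lung above each of heart, liver, and kidney. IDO1, which degrades tryptophan, stood at 1753 ± 750.1 FPKM in the lungs and 0.184, 0.874, 5.19, 13.3 and 0.821 in the spleens, so it was a lung gene with no call of the spleen over the liver (adjusted p = 0.388, limma). CD5L, a protein of tissue macrophages, stood at 1324 ± 212 in spleen, 76.1 ± 59.0 in lung, and 31.7 ± 40.5 in liver.

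Signalling molecules were mostly higher for the average. Of the leukocyte adaptors, kinases, and GTPase regulators (19 of 35) 17 were higher, and LIMD2 and ITGA4 were shared. STXBP2, a docking protein of secretory granules, stood at 88.6 ± 12.1 in spleen, 75.8 ± 8.41 in lung, and 68.1 ± 30.1 in kidney, and ITGB3, the integrin beta 3 chain of platelets, at 155 ± 63.5 in spleen and 5.41 ± 1.20 in lung. Of the cytokines, chemokines, and their receptors (19 of 34) 11 were higher and none was shared. CXCL13, which draws B cells into follicles, stood at 127 ± 39.1 in the spleen and was listed at 0 in all 5 lungs. CXCL17, a chemokine of mucosal surfaces, stood at 2074 ± 447 in the lung and 3.63 ± 6.70 in the spleen. Of the G protein-coupled and purinergic receptors (10 of 18) 7 were higher, 1 was lower (OXER1), and none was shared, with P2RY10 and P2RY13, nucleotide receptors of leukocytes, at 3.22 ± 2.11 and 1.66 ± 1.20 in the lung.

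The immune transcription factors (14 of 19) had 10 higher genes and 1 lower gene, with POU2AF1 shared higher and the lower gene shared lower. SPIB and SPIC, Ets factors of B cells and of red pulp macrophages, stood at 53.6 ± 6.47 and 74.1 ± 51.1 in the spleen and at 2.11 ± 0.612 and 0.895 ± 0.521 in the lung. Of the cell cycle list (8 of 23) 3 were higher and none was shared. PTTG1, the securin, stood at 103 ± 42.4 in the lung and 20 ± 4.62 in the spleen, and MYBL2, a cell cycle factor, at 3.52 ± 2.0 and 22.2 ± 10.8.

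No gene of the endothelium list or of the stroma and matrix list was shared, which at 1.8% of named genes shared higher is near the background. SVEP1, LTBP2, and NDNF, shared higher genes described above, are in neither list. Of the endothelium list (11 of 21) 8 were higher and 1 lower (TM4SF18). CD93, a receptor of endothelial cells, stood at 266 ± 151 in lung, 50.4 ± 15.4 in spleen, and 18.1 ± 6.22 in heart, and its smallest pairwise difference (spleen against heart) was 0.29. CLEC1B, the podoplanin receptor of platelets that is also found on sinusoidal endothelium, stood at 994 ± 414 in spleen, 39.3 ± 5.82 in lung, and 151 ± 87.5 in liver. Of the stroma and matrix list (27 of 32) 15 were higher and 2 lower (KERA and PDGFRL). Over each of heart, liver, and kidney lay 12 in the spleen and 5 in the lung. FOXF1, a mesenchymal factor of the lung, stood at 158 ± 98.5 in the lung and 1.56 ± 0.821 in the spleen, and LGALS1, a galectin, at 268 ± 212 and 502 ± 255, with no call (adjusted p = 0.325, limma).

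**Figure D5:**
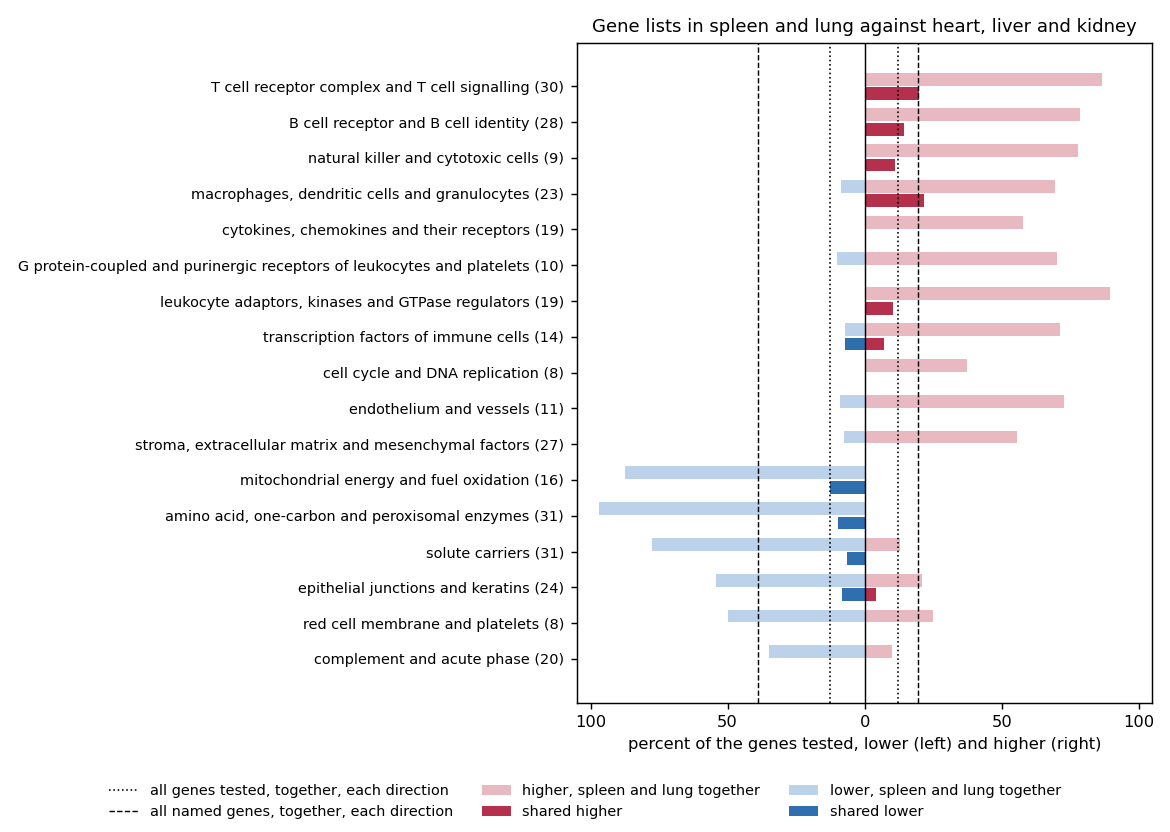
Percent of the genes tested in each list (number in brackets) that were higher (right) or lower (left) in spleen and lung, with pale bars for both organs averaged and dark bars for shared genes. Dotted lines mark the percent of all genes tested called for the average, 12% higher and 12.6% lower, and dashed lines the percent of all named genes, 19.5% and 38.8%. The lists hold genes that the study chose as tissue-specific on these samples.

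The metabolic lists ran the other way. Of the amino acid, one-carbon, and peroxisomal enzymes (31 of 32) 30 were lower and CA5A had no call, with a median log2 difference of -3.04, and FAH, CTH, and ECHDC2 were shared. SHMT1, which passes one-carbon units from serine, stood at 29.6 ± 6.79 in spleen, 17.9 ± 1.72 in lung, and 5.96 ± 1.75 in heart. HAAO, of tryptophan breakdown, stood at 16.6 ± 3.18, 8.24 ± 2.65, and 0.828 ± 0.676. For these 2 the heart lay below spleen and lung, and the lower call came from liver and kidney.

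Of the mitochondrial energy list (16 of 34) 14 were lower and none higher, with SLC25A4 and COX7A1 shared and a median of -1.61. LDHB, the lactate dehydrogenase chain of heart, stood at 3738 ± 644 in the heart and 446 ± 157 and 536 ± 186 in spleen and lung, close to the liver (507 ± 157). NDUFA11, of complex I, stood at 120.2 ± 29.0 and 113 ± 19.6 against 171 ± 17.1 in the liver. Of 31 solute carriers 24 were lower and 4 higher (SLC35F1, SLC37A2, SLC4A8, and SLC7A7), and SLC38A3 and SLC25A34 were shared lower. SLC7A7, an exporter of basic amino acids, stood at 131 ± 13.6 in spleen, 38.9 ± 6.46 in lung, and 48.6 ± 28.0 in kidney, and SLC12A7, a potassium-chloride cotransporter, at 31.5 ± 15.8, 51.3 ± 14.5, and 90.4 ± 51.9.

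Of 24 epithelial junction and keratin genes 13 were lower and 5 higher, and CLDN11 was shared higher and CDH16 and CDH2 shared lower. In this list 17 were higher in the lung than in the spleen, such as KRT7 (264 ± 100.4 against 8.70 ± 12.5) and KRT8 (235 ± 204 against 12.3 ± 7.81). Of the red cell and platelet list (8 of 19) 4 were lower and CLEC1B and ITGB3 were higher, and of 20 complement and acute phase genes 7 were lower and 2 (APOE and CP) higher, with none shared in either list. The lower genes of the complement list are near the share of all named genes, and APOE was not called with median-of-ratios scaling (log2 difference 0.05, against 1.72 as reported). APOE, a lipid carrier, stood at 4182 ± 2339.8 in lung, 2281 ± 444 in spleen, and 11894 ± 6129 in liver, and SERPING1, the C1 inhibitor, at 269.8 ± 34.5, 429 ± 63.8, and 1267 ± 416. APOA1, a hepatocyte marker, ranged from 3276 to 4899.8 FPKM in the lung, while the other 7 hepatocyte markers summed there to at most 19.6.

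The pandas were next compared in 2 groups, the young pandas 3 to 5 with coronavirus infection and pandas 1 and 2. The combined difference was called as differing between them for 0 of 18701 genes (0.00%), with 127 genes at an unadjusted p below 0.05 by limma and 82 by limma-voom, which also called 0. Both numbers are fewer than the share of 0.05 that chance alone would give, so the test was conservative here. The lack of calls does not show that the panda groups were alike. With the lung of panda 1 left out, 1 gene was called. Of the named shared genes 2 had an unadjusted p below 0.05. One was CLDN11, at 4.42 in pandas 1 and 2 and 3.34 in pandas 3 to 5 (difference -1.08 (SE 0.50), adjusted p = 1.0 by limma), and the other was the lower gene listed by a locus number. The next smallest were TP73, PFKM, COX7A1, and NCAM1, with unadjusted p from 0.123 to 0.173 by limma. COX7A1 stood at -3.40 in pandas 1 and 2 and -2.99 in pandas 3 to 5.

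Within pandas 3 to 5 alone 22 of the 32 named higher genes and 15 of the 29 named lower genes were shared, and within pandas 1 and 2 alone 19 and 23, in fits with fewer libraries. At the same limits of p and size, 15 of the 32 named higher genes stayed shared under all 40 alternatives of scaling, filter, fit, and libraries. They were JCHAIN, IGHM, LAMP3, PLAC8, TSPAN15, ADAMDEC1, NPY1R, PTPRCAP, NDNF, LIMD2, SVEP1, LTBP2, LY9, ROS1, and WIPF3. Of the named lower genes LEAP2, DDAH1, PPP1R3C, ADSSL1, and COX7A1 did so. With a size limit of 2 in place of 1, LY9, WIPF3, ROS1, LTBP2, SVEP1, and COX7A1 of these were not shared. Leaving out any single library or panda kept 24 of the 32 named higher and 19 of the 29 named lower genes. Besides those named above, single libraries decided DLL1 (liver of panda 3), POU2AF1 (liver or lung of panda 4), VWA5A (spleen of panda 3, kidney of panda 1 or 5), and TP73 (liver of panda 1, 2, or 4, lung of panda 3). Among the lower genes they decided EGLN3 (lung of panda 1 or 5, kidney of panda 3), FGGY (liver of panda 1 or 5), LGALS4 (lung of panda 2, kidney of panda 1 or 5), and NCAM1 (spleen or lung of panda 2, kidney of panda 1 or 5). NCMAP rested on the heart of panda 4 or the lung of panda 2, the gene listed by a locus number on the lung of panda 2, and STYXL1 was lost without any of 9 libraries. PCP4L1 was lost without panda 5, and SBK2 and SLC25A34 without panda 2.

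Most shared genes could not be named. The unnamed identifier with the largest smallest difference was ENSAMEG00000001079, at 626 ± 328 FPKM in the spleen and 203 ± 75.8 in the lung and at most 5.66 ± 5.48 (kidney) elsewhere. ENSAMEG00000007450 was the most strongly lower, at 1.77 ± 1.54 in spleen and 1.86 ± 1.27 in lung, against 183 ± 45.5 in heart, 75.1 ± 19.6 in liver, and 96.1 ± 30.2 in kidney. Genes added by the authors' assembly made up 29 of the shared higher and 28 of the shared lower genes (5.19% and 7.89%), against 18.7% of all genes tested. The median gene length was 1185 bases for the shared higher, 918 for the shared lower, and 1395 for all genes tested.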

How the data were processed

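RNA was extracted from frozen tissue, and libraries made with a kit that does not mark strand were sequenced as paired ends on an Illumina HiSeq instrument. The authors aligned the reads to ailMel1 with HISAT2, assembled further transcripts with Cufflinks over all libraries together, and took the reads of each gene from HTSeq (union mode). The deposited table gives FPKM for 25376 genes, and the authors applied no stated scaling between libraries. FPKM sets every library to its own total, so a few very abundant genes lower all others in the same library.

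Genes at or below a mean of 1 FPKM in all 5 tissues were left out, and 18701 were tested. Values were quantile-scaled as log2(FPKM + 1) and fitted with limma 3.58.1 (R 4.3.3, trend in the variance), with tissue and panda as terms over all 25 libraries and 16 residual degrees of freedom. Libraries of the same number share age, date of death, and cause of death in the labels and were taken as 1 animal. After tissue means were removed they correlated at 0.117 to 0.534 (median 0.370), with 50 of 50 pairs above 0.1, against -0.484 to 0.367 (median -0.127) between animals. The contrasts were spleen and lung averaged against the average of heart, liver, and kidney, the 6 single pairs, spleen against lung, and the difference of the first contrast between pandas 3 to 5 and pandas 1 and 2. p-values were adjusted by Benjamini-Hochberg over all genes tested. An estimate called at 1 on the log2 scale had an adjusted p below 0.05.

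Whole reads were recovered from the steps of the FPKM values for all 24207 genes with any read, where 0.05 reads was the tolerance and 468 genes seen in a single library were taken at 1 read there. Of the values 100% came within 0.01 reads of a whole number, and on simulated data all read numbers were exact for 23027 of 23062 genes. The recovered reads were used for limma-voom and for the depth. Libraries with 3 reads or fewer on a gene were counted as at the floor, and such floors cover counting error only. No value was replaced by this floor in the fits. The limma fit was tested on simulated data for spleen and lung against the other 3 tissues, where 98 of 100 genes raised and 99 of 100 genes lowered 8-fold were called among 18701 genes. The moved genes were drawn only from genes with high mean levels, with normal noise and no other difference between tissues. The simulation therefore does not cover genes with few reads.

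Names came from the study's supplementary list, of which 1610 of 1778 match a RefSeq symbol (ASM200744v3), and 1 symbol was corrected from its description. The named genes were the 20 higher and 15 lower shared genes with the largest smallest difference, up to 4 shared and 2 further genes per list, IGHM and JCHAIN, those nearest the size limit, those with the largest and smallest gaps between spleen and lung, and those nearest to a difference between panda groups, and the other named shared genes were added. The members and lists were chosen with earlier results of these data known. Plots were made in Python with matplotlib. Sequences were not used here. Single genes left out of the text are not reported here, though they remain in the counts.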

Additional observations from a re-analysis of the deposited data

Results flagged for a closer look

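For each of the 61 named shared genes, the 5 scaled values of each tissue were examined for a library standing apart from the other 4 by more than 0.71 of the range (Dixon). Of 305 groups, 16 held such a value, and chance flags about 1 in 20. All values below are deposited FPKM, with the nearest library of the tissue on the scaled values beside each. The kidney of panda 4 accounted for 5. It was lowest for CDH16 (53.3, nearest 559), PTH1R (8.07, nearest 101), SLC38A3 (16.8, nearest 69.8), and SLC29A2 (0.613, nearest 6.48), and highest for MILR1 (3.48, nearest 2.70). The liver of panda 3 accounted for 4. It was lowest for CDH16 (0.346, nearest 15.4) and highest for STYXL1 (1.47, nearest 0.520), PTPRCAP (5.98, nearest 5.43), and, after scaling only, LAMP3 (0.125, nearest 0.195). The lung of panda 3 was lowest for LAMP3 (279.9, nearest 530.2) and highest for PTPRCAP (124, nearest 50.6) and SLC29A2 (0.258, with the others at 0). The remaining values were the heart of panda 4 for CLDN11 (3.81, nearest 0.370), the kidney of panda 3 for ROS1 (0.224, nearest 0.0387), the heart of panda 1 for PCP4L1 (1345, nearest 650.4), and the spleen of panda 3 for CDH2 (2.38, nearest 0.935). No difference between the panda groups passed the adjusted test with all libraries.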

How the results depend on the processing

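Counts are given as higher and lower genes for the average of spleen and lung (2245 and 2353 as reported), then shared higher and lower genes (559 and 355), then genes that differ between spleen and lung among the shared ones (168). Without scaling they were 7684 and 1134, 1910 and 85, and 415, so that 87.1% of the calls for the average were higher against 48.8% as reported and 42.7% with median-of-ratios scaling, which gave 505 and 502 shared genes (409 and 327 of the reported ones). A pseudocount of 0.1 gave 3610 and 3653 for the average and 270 between spleen and lung. limma-voom gave 4086 and 3916 for the average and 597 shared lower genes. A size limit of 2 gave 663 and 667, and 112 and 52 shared, and the adjusted p alone 6547 and 6023, and 1229 and 854 shared. Leaving out a library or a panda gave 2206 to 2373 and 2304 to 2444 for the average, 528 to 586 and 302 to 379 shared, 147 to 185 between spleen and lung, and 0 to 1 for the panda groups. No replicate block in place of the panda as a block gave 2230 and 2346 for the average, 515 and 345 shared, and 147 between spleen and lung, within 1.5 times of the blocked counts. Leaving out the kidney of panda 4 and the liver of panda 3 together, and limma-voom for the panda groups (0), were chosen after seeing the data. Over 98 genes and 40 alternatives the combined difference of single genes was classed as the same in 3915 fits, weaker in 2, stronger in 2, and reversed in 0. These classes concern the average of spleen and lung and not the shared calls. Of the 29 named lower genes only 7 stayed shared without scaling. Few reads limit the lower calls, and in 13 of the 29 named lower genes a spleen or lung held 3 reads or fewer. The causes of these changes were not tested.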
